A study of Homo sapiens with 18 samples.

Results

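The small nucleolar RNA host genes described here are SNHG1, SNHG5, SNHG6, SNHG7, SNHG8, SNHG12, SNHG15, SNHG16 and GAS5. They were found by their symbols among the genes of a deposited expression table of the human melanoma cell line MEL624, which lists 15258 genes in 9 input mRNA libraries. All 9 of the 9 host genes were in the table, and all 9 were among the 14512 tested genes, which averaged 1 TPM or more (TPM is a read abundance corrected for gene length and scaled to the same total in every library).

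The study compared PCIF1 knockout cells with control cells. PCIF1 is the enzyme that methylates the base next to the cap of RNAs that begin with adenosine, which gives m6Am. The 3 lines were KO2 and KO1, which are 2 independent clones of MEL624 with a PCIF1 knockout, and a control line of wild type MEL624 cells with a random sgRNA. All lines were grown in the same serum-containing DMEM medium, and each line gave 3 replicates, A to C, that the series calls biological. A further 9 libraries of m6A-immunoprecipitated mRNA were not analysed here. Each knockout line is 1 clone and there is 1 control line, so the p-values reflect how far replicate libraries of the same line scatter, and say nothing of the variation among separately edited lines.

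Host genes of this kind make long non-coding transcripts whose introns hold small nucleolar RNAs (snoRNAs). After splicing, the intron is trimmed to the snoRNA, which joins a set of core proteins and guides the chemical modification of ribosomal RNA. Box C/D snoRNAs guide ribose methylation and box H/ACA snoRNAs guide the change of uridine to pseudouridine. The spliced exons of several host genes, GAS5 and SNHG1 among them, carry a 5′ terminal oligopyrimidine (5′ TOP) start like that of ribosomal protein mRNAs, and their short reading frames expose them to nonsense-mediated decay. The libraries were made from mRNA purified on magnetic beads.

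The libraries held 7848089 to 11393206 reads on genes, recovered from the deposited values. PCIF1 itself was at 60.3 ± 3.86 TPM in KO2, 24 ± 1.77 TPM in KO1 and 57.6 ± 3.84 TPM in control cells (SD, n = 3 each), so its mRNA level separated KO1 and not KO2 from the control. Of 10 melanocyte and melanoma markers, MITF and PRAME had values (mean over 9 libraries 37.8 and 97.5 TPM). The other 8 (SOX10, PMEL, MLANA, TYR, DCT, TYRP1, S100A1, S100B) were not found by symbol among the genes with values. The summed level of MITF and PRAME was 160 to 164 TPM in KO2, 141 to 143 TPM in KO1 and 101 to 102 TPM in control libraries, and its part in the results below was not tested. Of 4 invasive melanoma markers, AXL averaged 684 TPM, THBS1 233 TPM, TGFBI 22.9 TPM and NGFR 1.47 TPM over the 9 libraries. Of 5 epithelial markers, KRT18 averaged 884 TPM and KRT8 91.6 TPM, and EPCAM, CDH1 and KRT19 were likewise not found. In bulk RNA, fewer cells of a type and less RNA per cell cannot be told apart.

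The start regions of the host genes are shown first, because PCIF1 acts on RNAs that begin with adenosine whereas a 5′ TOP start begins with C. RefSeq (GRCh38.p14) gave a promoter for 7 of the 9 host genes. Each window covers the 40 bases before and the 40 bases from the RefSeq start on, 5′ to 3′ on the gene's strand. Capitals mark the longest unbroken run of C and T within 25 bases of the start on either side, or both runs where 2 were equally long.
SNHG1, chr11:62855846-62855925, minus strand: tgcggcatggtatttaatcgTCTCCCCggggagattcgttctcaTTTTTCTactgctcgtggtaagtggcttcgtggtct
SNHG5, chr6:85678694-85678773, minus strand: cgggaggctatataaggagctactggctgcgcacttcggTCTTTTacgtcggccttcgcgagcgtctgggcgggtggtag
SNHG7, chr9:136728145-136728224, minus strand: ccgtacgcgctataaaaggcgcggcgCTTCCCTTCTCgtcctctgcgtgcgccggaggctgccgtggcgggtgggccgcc
SNHG8, chr4:118278722-118278801, plus strand: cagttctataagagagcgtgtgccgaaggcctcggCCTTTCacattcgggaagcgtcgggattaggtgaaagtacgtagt
SNHG12, chr1:28581834-28581913, minus strand: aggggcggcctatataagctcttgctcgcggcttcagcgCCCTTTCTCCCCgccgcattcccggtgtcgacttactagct
SNHG16, chr17:76557724-76557803, plus strand: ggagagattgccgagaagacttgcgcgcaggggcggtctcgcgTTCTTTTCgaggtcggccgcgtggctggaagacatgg
GAS5, chr1:173869006-173869085, minus strand: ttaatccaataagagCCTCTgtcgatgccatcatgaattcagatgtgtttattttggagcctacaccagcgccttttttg

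The longest run was 12 bases in SNHG12, 11 in SNHG7, 8 in SNHG16, 7 in SNHG1, 6 in SNHG5, 6 in SNHG8 and 5 in GAS5. The run covered the RefSeq start in SNHG5, SNHG8 and SNHG12. It lay before the start in SNHG7 and GAS5 and after it in SNHG16, and SNHG1 had 1 run of that length before the start and 1 after it. The median over the 7 host genes was 7 bases, against 5 bases over 27305 RefSeq promoters and 11 bases over 66 promoters of cytosolic ribosomal protein genes. A run of at least 6 bases was present in 85.7% of the host gene promoters, in 44.3% of all promoters and in 89.4% of the ribosomal protein promoters. A run of at least 8 bases was present in 42.9% of the host gene promoters, in 20.5% of all promoters and in 80.3% of the ribosomal protein promoters. The GAS5 window belongs to a RefSeq start 1056 bases upstream of the start of the canonical GENCODE 44 transcript. The first 30 bases of that GENCODE transcript are shown because they hold a C and T run at the very start, in capitals.
GAS5, chr1:173867960-173867989, minus strand: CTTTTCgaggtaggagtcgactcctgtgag

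The annotated first base was A in 0 of the 9 canonical GENCODE transcripts of the host genes, against 45% of 14396 tested genes. It was C in 5 of 9 (SNHG7, SNHG8, SNHG12, SNHG15 and GAS5), against 12.1% of tested genes, and G in the other 4, against 40.5%. At the most upstream annotated start, A was first in 2 of 9 (SNHG1 and SNHG12), against 40% of tested genes. C was first there in 3 of 9, against 15.6% of tested genes. At the 7 RefSeq starts, C was first in 5, A in 1 (GAS5) and G in 1 (SNHG16). These are annotated starts and not starts measured in these cells, and the choice of annotation changed the base for SNHG1, SNHG5, SNHG8, SNHG12 and GAS5.

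Short promoter motifs were searched on both strands in the full 300-base RefSeq promoters, 250 bases before to 50 bases after the start. TATAAA was in 2 of 7 host gene promoters (SNHG1 and SNHG7) and in 12% of all promoters. TATATA, which can overlap TATAAA, was in 3 of 7 (SNHG5, SNHG12 and GAS5) and in 4.25% of all promoters. The E-box CACGTG was in the SNHG7 promoter and in 7.43% of all promoters, and CCAAT was in 2 of 7 (SNHG5 and GAS5) and in 35.7% of all promoters. The GAS5 matches belong to the RefSeq start 1056 bases upstream of the canonical GENCODE start. A match of letters is a description and not a site of binding.

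In control cells the host genes ranged from 29.3 ± 3.16 TPM for SNHG15 to 203 ± 5.42 TPM for GAS5 (SD, n = 3). GAS5 and SNHG6 (196 ± 14.7 TPM) led and overlapped in their libraries, SNHG8 (156 ± 7.1 TPM) and SNHG5 (150 ± 2.8 TPM) overlapped next, and SNHG16 (108 ± 4.95 TPM) overlapped SNHG1 (102 ± 5.46 TPM). SNHG7 at 53.5 ± 1.98 TPM, SNHG12 at 44.6 ± 3.27 TPM and SNHG15 each stood apart from their neighbours in the order. The exonic lengths behind these TPM values, recovered together with the reads, ranged from 923 bases for SNHG8 to 5362 bases for SNHG16, so the order depends on the gene models the authors used. The coefficient of variation between replicates ranged from 1.87% for SNHG5 in control cells to 16.8% for SNHG8 in KO2. In KO1 the order began with GAS5 at 201 ± 5.78 TPM and ended with SNHG15 at 30.4 ± 0.883 TPM, and the libraries of SNHG5, SNHG8, SNHG1 and SNHG16 overlapped each with the next. In KO2 the order began with SNHG5 at 353 ± 16.9 TPM, whose libraries lay above all libraries of SNHG6 (227 ± 20.8 TPM), the next gene.

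**Figure D1:**
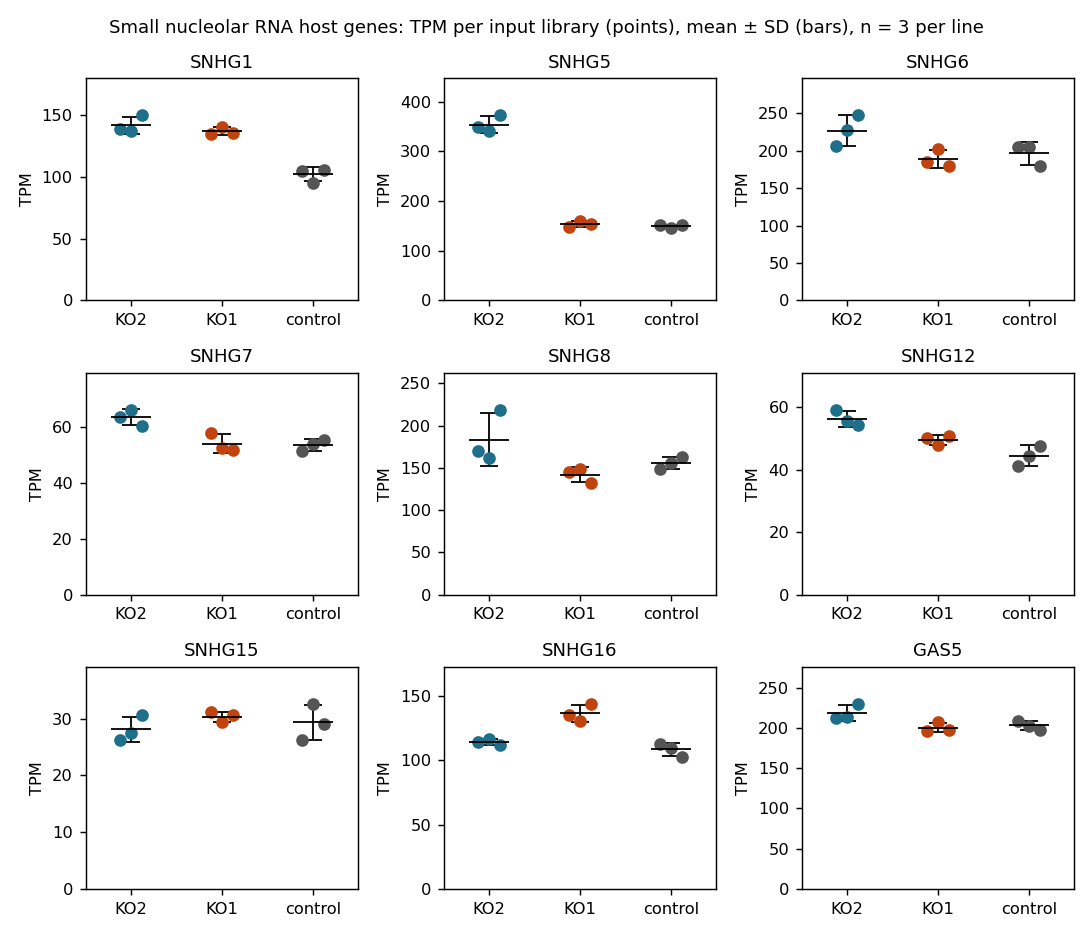
TPM of the 9 host genes in each input library (points), with the mean and SD as bars, for KO2, KO1 and control from left to right, n = 3 per line, each vertical axis starting at 0. The KO2 libraries of SNHG5 lie at 340 to 372 TPM, above all KO1 and control libraries, and both knockout lines of SNHG1 lie above the control libraries.

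Among the 9 genes the largest fold change was that of SNHG5, a host of box C/D snoRNAs. SNHG5 (ENSG00000203875, chr6:85650491-85678932, minus strand, hg38, a long non-coding RNA gene) carries SNORD50A and SNORD50B in its introns. It was at 348, 340 and 372 TPM in the KO2 libraries A, B and C, at 147, 159 and 153 TPM in the KO1 libraries, and at 151, 146 and 151 TPM in the control libraries. KO2 stood apart in every library, whereas KO1 and control libraries overlapped. KO2 exceeded control 2.36-fold (95% confidence interval 2.2 to 2.53; log2 fold change 1.24, SE 0.0439, limma adjusted p = 6.41e-08). KO2 also exceeded KO1, by a log2 difference of 1.21 (SE 0.0439, limma adjusted p = 1.92e-07). The log2 fold change of KO1 against control was 0.03, with a 95% confidence interval of -0.07 to 0.13 (limma adjusted p = 0.606). These values rest on 2091 to 2958 reads per library in KO2, 1028 to 1291 in KO1 and 982 to 1373 in control.

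SNHG1 (ENSG00000255717, chr11:62851978-62855953, minus strand) is the host with 9 snoRNA genes in RefSeq, among them SNORD22 and SNORD25 to SNORD31. It was at 139, 137 and 150 TPM in KO2, at 135, 141 and 136 TPM in KO1, and at 105, 95.6 and 106 TPM in control libraries. All 6 knockout libraries lay above all 3 control libraries. The log2 fold change was 0.48 in KO2 (95% confidence interval 0.36 to 0.59, limma adjusted p = 7.2e-05) and 0.43 in KO1 (95% confidence interval 0.32 to 0.54, limma adjusted p = 0.000166), and both used the same control libraries. SNHG1 was the host gene that passed the test against control in both clones. KO2 minus KO1 was 0.04 on the log2 scale (95% confidence interval -0.07 to 0.16, limma adjusted p = 0.552).

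SNHG16 (ENSG00000163597, chr17:76557727-76670985, plus strand), host of SNORD1A, SNORD1B and SNORD1C, was at 114, 117 and 112 TPM in KO2, at 135, 131 and 144 TPM in KO1, and at 113, 110 and 103 TPM in control libraries. Here the KO1 libraries stood above the others, and the KO2 libraries overlapped the control libraries. KO1 exceeded control by a log2 difference of 0.33 (SE 0.0475, limma adjusted p = 0.000568). The log2 fold change of KO2 against control was 0.07 (95% confidence interval -0.03 to 0.18, limma adjusted p = 0.269). KO2 was lower than KO1 (-0.26 in log2 units, SE 0.0475, limma adjusted p = 0.0031). Both results changed side after a running median of 51 neighbouring genes was subtracted: KO2 against control was 0.18 and passed (limma adjusted p = 0.0366), and KO2 against KO1 was -0.16 and did not (limma adjusted p = 0.0583).

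GAS5 (ENSG00000234741, chr1:173858559-173868882, minus strand), growth arrest specific 5, holds 11 snoRNA genes in RefSeq, 10 of them box C/D. It was at 212, 214 and 230 TPM in KO2, at 196, 207 and 198 TPM in KO1, and at 209, 203 and 198 TPM in control libraries. The KO2 libraries lay just above the others, and KO1 and control overlapped. Against control, the log2 fold change of 0.10 in KO2 (limma adjusted p = 0.0864) and that of -0.02 in KO1 (limma adjusted p = 0.754) did not pass. KO2 was above KO1 by a log2 difference of 0.12 (95% confidence interval 0.03 to 0.22, limma adjusted p = 0.0493), a call lost in 13 of 20 alternative analyses.

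SNHG6 (ENSG00000245910, chr8:66920561-66926398, minus strand), host of SNORD87, was at 206, 227 and 247 TPM in KO2, at 185, 202 and 179 TPM in KO1, and at 205, 205 and 179 TPM in control libraries. Its KO2 libraries were the highest and spread widely, from 206 to 247 TPM. KO2 was above KO1 by a log2 difference of 0.26 (SE 0.0767, limma adjusted p = 0.0274), and the call was lost without KO1 replicate A, KO1 replicate C, KO2 replicate B or KO2 replicate C (limma adjusted p = 0.0724, 0.0959, 0.0591 and 0.087, in that order). Against control, SNHG6 had a log2 fold change of 0.21 in KO2 (limma adjusted p = 0.0678) and of -0.06 in KO1 (limma adjusted p = 0.595). The KO2 value passed without KO2 replicate A (0.27, limma adjusted p = 0.0275) and by limma-voom on the recovered reads (0.19, limma adjusted p = 0.0329), and it was 0.14 without KO2 replicate C (limma adjusted p = 0.201) or control replicate C (limma adjusted p = 0.216).

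Among the hosts of box H/ACA snoRNAs, SNHG12 and SNHG7 were higher in KO2 than in control. SNHG12 (ENSG00000197989, chr1:28578538-28583132, minus strand) hosts SNORA16A, SNORA44 and SNORA61 and the box C/D SNORD99. It was at 59.3, 55.8 and 54.3 TPM in KO2, at 50.1, 47.9 and 51 TPM in KO1, and at 41.3, 44.6 and 47.8 TPM in control libraries. The 3 lines did not overlap, with KO2 highest and control lowest. The log2 fold change against control was 0.34 in KO2 (SE 0.0615, limma adjusted p = 0.00212) and 0.16 in KO1 (95% confidence interval 0.02 to 0.29, limma adjusted p = 0.0734, which did not pass). Without control replicate C, the KO1 value was 0.21 and passed (limma adjusted p = 0.0326). KO2 exceeded KO1 by 0.19 (limma adjusted p = 0.0467), a call lost in 8 of 20 alternatives.

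SNHG7 (ENSG00000233016, chr9:136721366-136728184, minus strand), host of SNORA17A and SNORA17B, was at 63.6, 66.2 and 60.5 TPM in KO2, at 57.9, 52.6 and 51.6 TPM in KO1, and at 51.4, 53.8 and 55.4 TPM in control libraries. KO2 lay above the other lines, and KO1 and control overlapped. KO2 exceeded control by a log2 difference of 0.24 (SE 0.0575, limma adjusted p = 0.00947) and KO1 by 0.23 (limma adjusted p = 0.0136; 0.20 and limma adjusted p = 0.0573 without KO1 replicate C). KO1 against control was 0.01 (95% confidence interval -0.12 to 0.14).

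SNHG8 (ENSG00000269893, chr4:118278703-118285316, plus strand), host of SNORA24, was at 170, 162 and 219 TPM in KO2, at 145, 149 and 132 TPM in KO1, and at 149, 156 and 163 TPM in control libraries. KO2 replicate C was the highest library, and KO2 replicate B overlapped the control libraries. KO2 was above KO1 by a log2 difference of 0.36 (SE 0.0994, limma adjusted p = 0.0215). The difference was 0.23 without KO2 replicate C (limma adjusted p = 0.0247), and it did not pass without KO1 replicate C (0.31, limma adjusted p = 0.0793). Against control, the log2 fold change was 0.23 in KO2 (limma adjusted p = 0.116) and -0.14 in KO1 (limma adjusted p = 0.316). The KO2 value was 0.092 without KO2 replicate C (limma adjusted p = 0.296), and it passed without KO2 replicate B (0.31, limma adjusted p = 0.0415) and by limma-voom (0.22, limma adjusted p = 0.0448). The KO1 value was -0.085 without KO1 replicate C (limma adjusted p = 0.616).

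SNHG15 (ENSG00000232956, chr7:44983019-44986961, minus strand), host of SNORA9, was the least abundant. It was at 26.2, 27.5 and 30.6 TPM in KO2, at 31.1, 29.4 and 30.6 TPM in KO1, and at 26.3, 32.6 and 29.1 TPM in control libraries. All 3 lines overlapped. The log2 fold change was -0.06 in KO2 (95% confidence interval -0.25 to 0.13) and 0.06 in KO1 (95% confidence interval -0.13 to 0.25) against control, and -0.11 in KO2 against KO1 (95% confidence interval -0.30 to 0.08).

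Counted over the 9 host genes, KO2 against control gave 4 higher (SNHG5, SNHG1, SNHG12 and SNHG7) and 0 lower at a limma adjusted p under 0.05. Over all 14512 tested genes, 15.6% were called higher and 14.8% lower in that comparison. At an unadjusted p under 0.05, limma gave 7 higher and 0 lower, and limma-voom on the recovered reads gave 6 higher and 0 lower after adjustment. The median log2 fold change was 0.23 over the host genes and 0.010 over all tested genes. KO1 against control gave 2 higher (SNHG1 and SNHG16) and 0 lower, beside 20.2% higher and 14.1% lower over all tested genes, so the share of host genes called was near that background. At an unadjusted p under 0.05, limma gave 3 higher and 0 lower, and limma-voom gave 2 higher and 0 lower after adjustment. Their median was 0.03, against 0.035 over all tested genes. KO2 against KO1 gave 6 higher and 1 lower (SNHG16), beside 11.8% higher and 16.9% lower over all tested genes, with a median of 0.19 against -0.037. Without KO1 replicate C, 1 host gene was called higher between the clones, and without KO1 replicate A or KO2 replicate B there were 3. Exact two-sided permutation tests of 3 libraries against 3 gave p = 0.1, the smallest they can give, for each comparison in which the lines did not overlap.

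**Figure D2:**
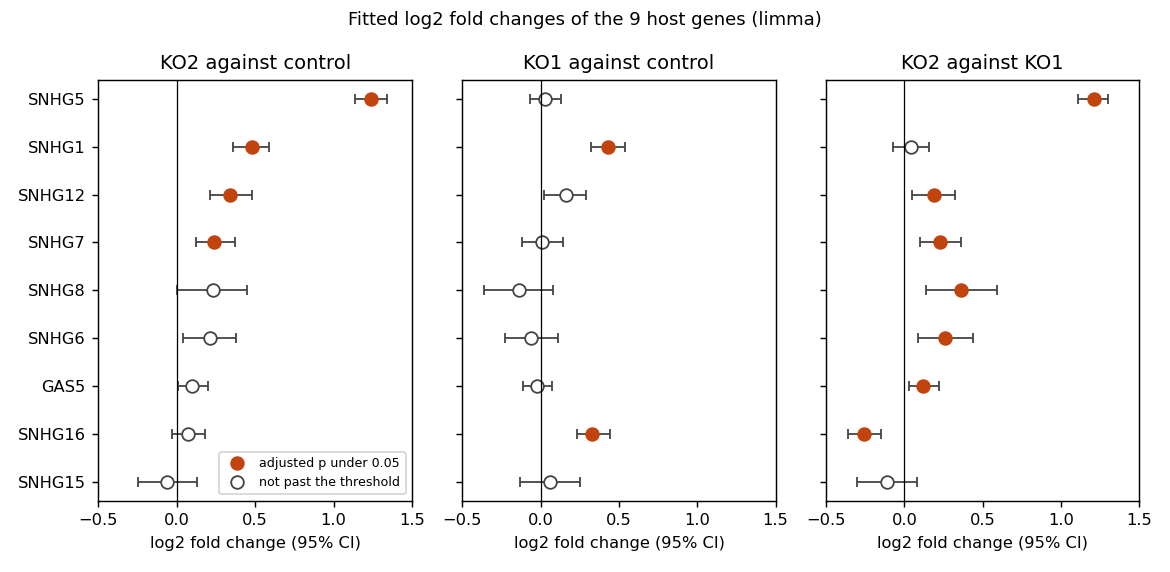
Fitted log2 fold changes of the 9 host genes with 95% confidence intervals, for KO2 against control, KO1 against control and KO2 against KO1. Filled points passed a limma adjusted p under 0.05, and the SNHG5 points at 1.24 and 1.21 lie farthest from 0.

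The summed level of the 9 host genes was 1386 ± 77.2 TPM in KO2, 1092 ± 23.9 TPM in KO1 and 1043 ± 9.42 TPM in control cells (SD, n = 3 each). SNHG5 made up 25.2% to 26% of that sum in KO2 libraries, against 13.6% to 14.3% in KO1 libraries and 14% to 14.7% in control libraries. Without SNHG5 the sum was 1033 ± 61.3 TPM in KO2, 938.6 ± 19.6 TPM in KO1 and 893.2 ± 10.7 TPM in control cells. The 3 lines did not overlap without SNHG5 either, at 989.9 to 1103 TPM in KO2, 921.3 to 959.9 TPM in KO1 and 880.8 to 900 TPM in control.

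The genes that lie beside SNHG5 on its lower-coordinate side on chromosome 6 differed between the clones as well. SYNCRIP, which encodes an RNA-binding protein and starts on the lower-coordinate side of SNHG5, was at 219 ± 2.06 TPM in KO2, 161 ± 0.804 TPM in KO1 and 150 ± 4.44 TPM in control cells. Its log2 fold change against control was 0.55 in KO2 (limma adjusted p = 1.75e-06) and 0.10 in KO1 (limma adjusted p = 0.0321). Values farther out, which were chosen after their levels were seen, were for KO2 against control 0.35 for the sorting nexin SNX14 (limma adjusted p = 0.00403), 0.21 for NT5E, the surface enzyme CD73 (limma adjusted p = 0.00733), and 0.89 for LINC02535 (limma adjusted p = 0.0044). In KO1 against control, SNX14 had -0.24 (limma adjusted p = 0.023), NT5E had -0.41 (limma adjusted p = 0.000151) and LINC02535 had -0.28 (limma adjusted p = 0.272). The next gene on that side, TBX18, had -0.25 in KO2 (limma adjusted p = 0.051), and it was lower in KO2 than in KO1 (-0.33, limma adjusted p = 0.0191). On the other side ZNF292, 1472871 bases away, had 0.25 in KO2 (limma adjusted p = 0.117) and 0.27 in KO1 (limma adjusted p = 0.0843). Over the 6 tested genes nearest on that side, KO2 minus KO1 ran from -0.10 to 0.17 on the log2 scale. No gene among them passed in that comparison (limma adjusted p from 0.112 to 0.912). The median over the 50 tested genes nearest to SNHG5 was 0.12 in KO2 and 0.04 in KO1. After a running median of 51 neighbouring genes was subtracted, SNHG5 in KO2 against control had a log2 fold change of 1.15 (limma adjusted p = 5.13e-08). The part of its nearest neighbours in the SNHG5 level was not tested.

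**Figure D3:**
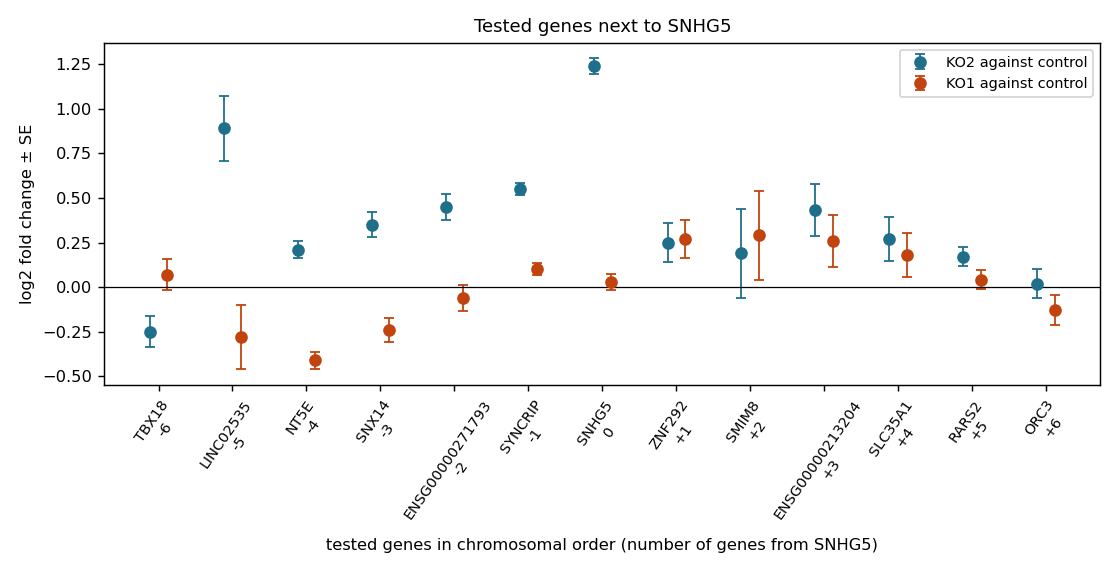
Log2 fold change with its SE of SNHG5 and the 6 tested genes on either side, in chromosomal order, for KO2 against control and KO1 against control. The span of ENSG00000271793 overlaps both SYNCRIP and SNHG5. SNHG5 at 1.24 in KO2 is the highest point, and SYNCRIP (0.55), ENSG00000271793 (0.45), SNX14 (0.35), NT5E (0.21) and LINC02535 (0.89) are also above 0 in KO2, while the 6 genes on the other side lie between 0.02 and 0.43 in KO2.

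A gene without a symbol, ENSG00000271793, begins at a lower coordinate than SYNCRIP and reaches into SNHG5, so its span also covers SYNCRIP. This gene is annotated on the same strand as SNHG5 and shares 28243 bases of the SNHG5 span. It was at 275 ± 19.6 TPM in KO2, 192 ± 17.5 TPM in KO1 and 201 ± 10.8 TPM in control cells, with a log2 fold change of 0.45 in KO2 (limma adjusted p = 0.00108) and -0.06 in KO1 (limma adjusted p = 0.548). Reads of exons that the gene shares with SNHG5, or with SYNCRIP if it shares any, could be counted for either gene, for both or for neither. The levels of genes that share exons are uncertain to that extent, and they are not separate measurements. Genes on the opposite strand overlap SNHG7 (DIPK1B), SNHG8 (PRSS12), SNHG12 (TRNAU1AP) and GAS5 (ZBTB37). The libraries were made with a directional kit, and the sources used here do not give whether the counting used strand. DIPK1B had log2 fold changes of 1.26 in KO2 and 1.64 in KO1 against control at levels of 2.83 TPM in KO2, 3.73 TPM in KO1 and 1.18 TPM in control cells, far below SNHG7. PRSS12 had -0.39 in KO2 and -0.25 in KO1, beside 0.23 in KO2 and -0.14 in KO1 for SNHG8. The part of these opposite-strand genes in the host gene levels was not tested. Of the 12 tested genes nearest to SNHG1, 6 on either side and its SNORD22 copies among them, 3 were higher and 4 lower in KO2 against control, and 3 were higher and 3 lower in KO1 against control. The following neighbours were chosen after their values were seen. NXF1, an mRNA export receptor, was higher in KO2 (0.29, limma adjusted p = 0.00526) and in KO1 (0.43, limma adjusted p = 0.00058). STX5, a syntaxin of the Golgi, was lower in KO2 (-0.30, limma adjusted p = 0.0036) and in KO1 (-0.19, limma adjusted p = 0.0348), and so was PLAAT3 (-0.52 in KO2, limma adjusted p = 0.00161, and -0.50 in KO1, limma adjusted p = 0.00215). SLC3A2, a transporter heavy chain, had 0.08 in KO2 (limma adjusted p = 0.273) and 0.28 in KO1 (limma adjusted p = 0.00212). ATL3 went in opposite directions, with -0.46 in KO2 (limma adjusted p = 0.00236) and 0.63 in KO1 (limma adjusted p = 0.000401). PLAAT4 had -2.09 in KO2 (limma adjusted p = 0.00126) and -0.32 in KO1 (limma adjusted p = 0.513). Its levels were low, at 1.01 TPM in KO2, 3.46 TPM in KO1 and 4.17 TPM in control cells.

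The snoRNAs themselves, which as mature RNAs have no poly(A) tail, were little covered in this bead-purified mRNA. RefSeq places 34 annotated snoRNA genes inside the 9 host genes. The sequence of 1 snoRNA is printed for each of SNHG5, SNHG1 and SNHG16, the box C/D hosts called against control, to show what their introns release, from GENCODE 44 positions on hg38. Capitals mark the box C letters TGATGA and the last box D letters CTGA.
SNORD50B of SNHG5, chr6:85677589-85677658, minus strand: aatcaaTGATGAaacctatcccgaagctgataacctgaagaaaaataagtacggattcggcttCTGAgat
SNORD30 of SNHG1, chr11:62853663-62853732, minus strand: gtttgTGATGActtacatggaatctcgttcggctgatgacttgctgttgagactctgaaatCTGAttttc
SNORD1B of SNHG16, chr17:76561109-76561192, plus strand: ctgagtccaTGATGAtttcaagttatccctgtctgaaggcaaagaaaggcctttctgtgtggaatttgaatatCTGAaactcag

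Of the hosted snoRNAs, SNORD22, SNORA17A, SNORA17B, SNORD99, SNORA61, SNORA44 and the entry ENSG00000281808 of SNHG7 had values, from 4 to 30 reads per library. SNORD99 of SNHG12, the best covered, was at 123 ± 10.7 TPM in KO2, 102 ± 25.3 TPM in KO1 and 109 ± 15 TPM in control cells, and its log2 fold change in KO2 against control was 0.17 (limma adjusted p = 0.438). SNORA44 of SNHG12 was at 40 ± 4.06 TPM in KO2, 31.2 ± 6.61 TPM in KO1 and 24.9 ± 9.28 TPM in control cells, with a log2 fold change of 0.74 in KO2 (limma adjusted p = 0.0303) and 0.37 in KO1 (limma adjusted p = 0.232). The SNORD22 copy ENSG00000277194 of SNHG1 was at 36.2 ± 13.3 TPM in KO2, 26.6 ± 6.78 TPM in KO1 and 19 ± 5.65 TPM in control cells, with 0.91 in KO2 (limma adjusted p = 0.0354) and 0.49 in KO1 (limma adjusted p = 0.21). The second annotated copy, ENSG00000278527, was at 34.3 ± 16.6 TPM in KO2, 33.5 ± 8.32 TPM in KO1 and 25.6 ± 5.78 TPM in control cells, with 0.29 in KO2 (limma adjusted p = 0.597) and 0.38 in KO1 (limma adjusted p = 0.466), and reads may be split between the copies. SNORA61 of SNHG12 had 0.46 in KO2 (limma adjusted p = 0.524) and -0.03 in KO1 (limma adjusted p = 0.966). In SNHG7, SNORA17A had 0.03 in KO2 (limma adjusted p = 0.955) and -0.16 in KO1 (limma adjusted p = 0.684), and SNORA17B had 0.09 in KO2 (limma adjusted p = 0.81) and -0.17 in KO1 (limma adjusted p = 0.615). The entry ENSG00000281808 had the same fold changes as SNORA17A and the same range of 7 to 14 reads per library. These entries are therefore not separate measurements. The snoRNAs lie inside unspliced host RNA, so these reads do not separate the mature snoRNA from its precursor. No value was used here for the snoRNAs of SNHG5, SNHG6, SNHG8, SNHG15, SNHG16 or GAS5.

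Among the genes whose pattern over the 9 libraries was most like that of SNHG1 were DDX1 and PTMA, by the root-mean-square difference of centred log2 TPM (0.0466 for DDX1 and 0.0511 for PTMA). DDX1, an RNA helicase, had log2 fold changes of 0.56 in KO2 and 0.51 in KO1. PTMA, prothymosin alpha, had 0.42 in KO2 and 0.38 in KO1. They were picked as most alike out of 14512 genes, so their likeness is a description.

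Other non-coding host genes also varied from gene to gene. For this list and those that follow, the shares over all tested genes were 15.6% higher and 14.8% lower in KO2 against control, 20.2% and 14.1% in KO1 against control, and 11.8% and 16.9% in KO2 against KO1. Of 18 other non-coding hosts tested, 6 were higher and 2 lower in KO2 against control, 5 were higher and 3 lower in KO1 against control, and 3 were higher and 1 lower in KO2 against KO1. The 5 became 2 without control replicate C, KO1 replicate A or KO1 replicate B, and 3 without KO1 replicate C or KO2 replicate A. SNHG14, the host of the imprinted SNORD115 and SNORD116 clusters, was at 25.9 ± 0.312 TPM in KO2, 24.4 ± 0.264 TPM in KO1 and 12.6 ± 0.272 TPM in control cells, with log2 fold changes of 1.04 (limma adjusted p = 6.96e-07) in KO2 and 0.95 (limma adjusted p = 1.46e-06) in KO1. DANCR, at 129 ± 4.86 TPM in KO2, 131 ± 1.12 TPM in KO1 and 95.2 ± 6.47 TPM in control cells, had 0.43 in KO2 (limma adjusted p = 0.000158) and 0.46 in KO1 (limma adjusted p = 0.000125). EPB41L4A-AS1 had 0.46 in KO2 and 0.31 in KO1, and SNHG32 had 0.28 in KO2 and 0.20 in KO1, each past the threshold. ZFAS1, whose values were seen before it was chosen, fell by 0.20 in KO2 (limma adjusted p = 0.0107) and by 0.27 in KO1 (limma adjusted p = 0.00175) on the log2 scale.

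Protein-coding snoRNA hosts, 48 tested, had 13 higher and 2 lower in KO2 against control, 5 higher and 15 lower in KO1 against control, and 23 higher and 3 lower in KO2 against KO1. In percent, that was 27.1% higher and 4.17% lower in KO2 against control, 10.4% and 31.2% in KO1 against control, and 47.9% and 6.25% in KO2 against KO1. The 15 became 8 or 9 without control replicate B, control replicate C, KO1 replicate A or KO1 replicate C. NCL, which encodes the nucleolar protein nucleolin, was higher in KO2 (0.49, limma adjusted p = 1.15e-05) and in KO1 (0.57, limma adjusted p = 4.66e-06). Of the 8 core proteins of snoRNA particles, 3 were higher and 1 lower in KO2 against control, 2 higher and 1 lower in KO1 against control, and 2 higher and 0 lower in KO2 against KO1. NOP58, a core protein of box C/D particles, had 0.45 in KO2 and 0.55 in KO1, and its partner NOP56, itself a snoRNA host, had -0.35 in KO2 and -0.37 in KO1, each past the threshold. Of 13 assembly factors, 6 were higher and 0 lower in KO2 (1 lower at an unadjusted limma p under 0.05 and 1 by limma-voom), 2 higher and 1 lower in KO1, and 4 higher and 0 lower in KO2 against KO1 (1 lower at an unadjusted limma p under 0.05 and 1 by limma-voom). In KO1 against control, 25% of the core proteins and 15.4% of the assembly factors were called higher, near the 20.2% of all tested genes. NOLC1, a nucleolar chaperone, was at 651 ± 19.2 TPM in KO2, 461 ± 6.12 TPM in KO1 and 461 ± 4.68 TPM in control cells, and SHQ1, a box H/ACA assembly factor, had 0.62 in KO2 (limma adjusted p = 3.03e-05) and 0.16 in KO1 (limma adjusted p = 0.0503).

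Genes of the decay and 5′ TOP pathways that act on host transcripts were counted in the same way. The higher calls in KO2 against control for the decay factors (16.7%) and in KO1 against control for other 5′ TOP mRNAs (18.8%) were near the shares over all tested genes. Of 18 nonsense-mediated decay factors, 3 were higher and 2 lower in KO2 against control, 8 were higher and 1 lower in KO1 against control, and 0 were higher and 7 lower in KO2 against KO1. SMG6, the endonuclease of the pathway, had 0.19 in KO2 (limma adjusted p = 0.0117) and 0.55 in KO1 (limma adjusted p = 2.11e-05), and SMG5 had 0.22 in KO2 (limma adjusted p = 0.00633) and 0.40 in KO1 (limma adjusted p = 0.000209). Of 8 mRNAs known to be sensitive to this decay, 4 were higher and 1 lower in KO2 against control, 1 higher and 2 lower in KO1 against control, and 2 higher and 0 lower in KO2 against KO1. Of 16 other 5′ TOP mRNAs, mostly of translation factors, 8 were higher and 0 lower in KO2 against control, 3 higher and 3 lower in KO1 against control, and 8 higher and 0 lower in KO2 against KO1, where the 8 became 5 without KO1 replicate A, KO1 replicate C, KO2 replicate A or KO2 replicate C. PABPC1, the poly(A)-binding protein gene, had 0.31 in KO2 and 0.35 in KO1. Of 9 regulators of 5′ TOP mRNAs, 2 were higher and 0 lower in KO2 against control (2 lower at an unadjusted limma p under 0.05 and 2 by limma-voom), 4 higher and 1 lower in KO1 against control, and 3 higher and 4 lower in KO2 against KO1. LARP1, which binds 5′ TOP starts, had 0.16 in KO2 (limma adjusted p = 0.0701) and 0.55 in KO1 (limma adjusted p = 0.000106). Of 82 cytosolic ribosomal protein genes, 22 were higher and 0 lower in KO2 against control, 3 higher and 34 lower in KO1 against control, and 56 higher and 0 lower in KO2 against KO1, where their median log2 fold change was 0.18 beside 0.19 for the 9 host genes. The 0 lower of the ribosomal protein genes in KO2 against control became 1 at an unadjusted limma p under 0.05 and 1 by limma-voom. The other counts of 0 for core proteins, decay factors, decay-sensitive mRNAs, 5′ TOP mRNAs and ribosomal protein genes were 0 under both. Counts of 3 or fewer in these lists moved by up to 2 when single libraries were left out. The lists share genes with each other, and their part in the host gene levels was not tested.

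**Figure D4:**
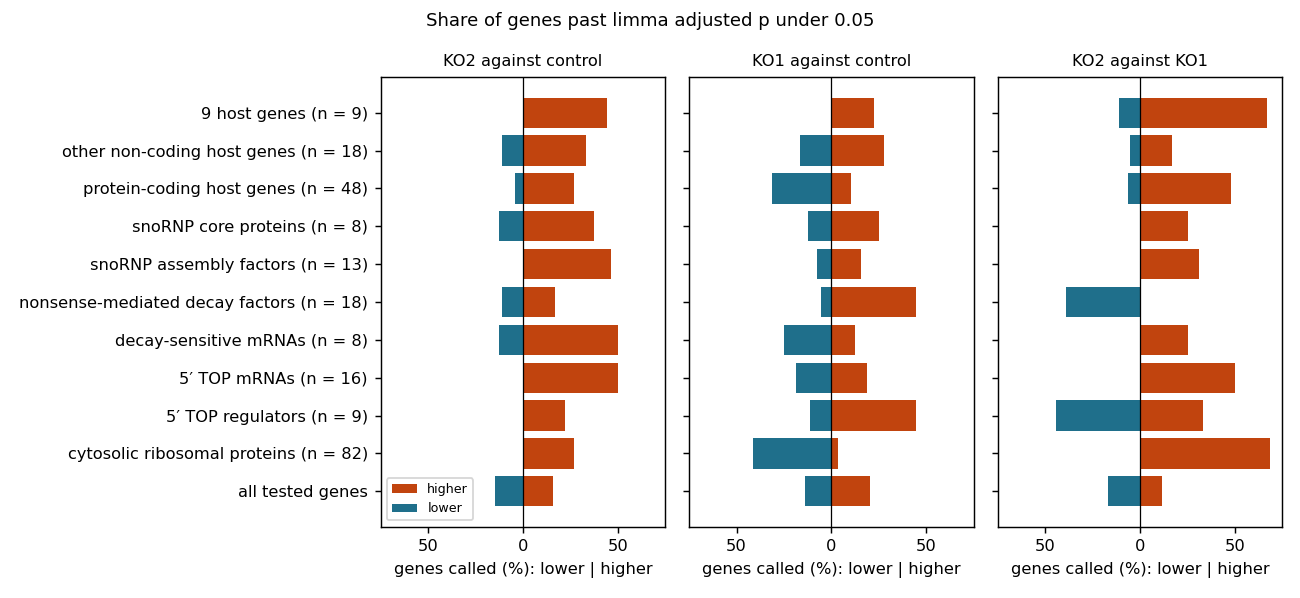
Share of genes called at a limma adjusted p under 0.05, in percent of those tested, higher to the right and lower to the left, for the 9 host genes, 9 related lists and all tested genes, in KO2 against control, KO1 against control and KO2 against KO1. In KO2 against KO1 the cytosolic ribosomal protein genes stand at 68.3% higher, against 11.8% of all tested genes.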

How the data were processed

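The 9 input libraries were measured by RNA-seq of bead-purified mRNA, made with a directional kit, per the labels' protocols. The authors deposited log2 TPM values of 15258 genes. The tools listed in the submitters' processing notes are featureCounts, HISAT2 2.0.4, edgeR 3.12.1, R 3.3.3, SAMtools 1.7 and deepTools 3.0.2, with build hg38. The sources used here do not give the annotation, the strand setting or the gene filter. Whole reads were recovered for 100% of genes (tolerance 1e-06 reads), 7848089 to 11393206 per library.

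limma-trend (limma 3.58.1, R 4.3.3) was fitted to the log2 values of all 9 libraries with 1 mean per line and 6 residual degrees of freedom, with Benjamini-Hochberg adjustment over 14512 genes. The fit was also run on simulated reads with the same spread setting for every gene and library. That run does not cover uneven spread between libraries or variation among separately edited lines, and no conclusion is drawn from it. Fold changes are on the deposited log2 scale, which includes a small prior count. Symbols and coordinates came from GENCODE 44 (15138 identifiers matched, 120 did not). Replicates of a line differed by more than counting error (ratio of chi-square to its degrees of freedom 1.22 to 3.71), which does not show whether they are independent samples. Each library was counted as a sample, and the series calls the replicates biological.

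The members and lists were chosen with earlier results of these data known. The text names all host genes, hosted snoRNAs with values, up to 4 called genes per list, the 3 genes most like a host called in both clones, nearest neighbours and PCIF1; others are marked as chosen after their values were seen. Values of some genes the rule took are not reported here.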

Additional observations from a re-analysis of the deposited data

Results flagged for a closer look

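The clones differed from each other, by the limma test of KO2 against KO1, for 7 of the 9 host genes, 6 higher and 1 lower in KO2, beside 11.8% higher and 16.9% lower over all tested genes. The GAS5 call was lost in 13 of 20 alternatives and the SNHG12 call in 8, and without KO1 replicate C the host genes called higher came to 1. The log2 difference was 1.21 for SNHG5, 0.36 for SNHG8, 0.26 for SNHG6, 0.23 for SNHG7, 0.19 for SNHG12, 0.12 for GAS5 and -0.26 for SNHG16. The adjusted p ranged from 1.92e-07 for SNHG5 to 0.0493 for GAS5. On the lower-coordinate side of SNHG5 the same test gave 0.44 for SYNCRIP, 0.52 for ENSG00000271793, 0.58 for SNX14, 0.62 for NT5E, 1.17 for LINC02535 and -0.33 for TBX18. No gene among the 6 nearest on the other side passed. Among the 6 nearest genes on either side of SNHG1, those that passed were TMEM179B (0.38), WDR74 (0.21), SLC3A2 (-0.20), PLAAT4 (-1.77) and ATL3 (-1.09). Among genes that work with snoRNAs, NOLC1 had 0.50 and SHQ1 had 0.46. Among decay factors, SMG6 had -0.36 and SMG5 had -0.18, and the 5′ TOP binding protein gene LARP1 had -0.39.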

How the results depend on the processing

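Each host gene's log2 fold change in each of 3 comparisons was recomputed under 20 alternatives, 1 of which, limma-voom on the recovered reads, was chosen after seeing the data. Of the recomputed values 491 kept their direction and side of the threshold, 30 lost a call, 7 gained one and 12 changed sign. The calls of SNHG1, SNHG5, SNHG7 and SNHG12 in KO2 and of SNHG1 and SNHG16 in KO1 against control held under all 20. With a running median of 51 neighbours subtracted, 1 host gene (GAS5, -0.11, limma adjusted p = 0.0284) was called lower in KO1 against control, and 0 were called lower in KO2 against KO1. Without a variance trend, 2 were called higher in KO2 against KO1, and leaving out 1 library each gave 1 to 5. Values that changed sign were never called: SNHG5 in KO1 (-0.0039 with median centring, -0.00011 with quantile normalization, -0.012 with the running median, -0.017 with voom), SNHG7 in KO1 (-0.025 with median centring, -0.017 without control replicate A, -0.038 without KO1 replicate A, -0.045 with the running median, -0.037 with voom; -0.038 to 0.044 with 1 library left out), SNHG15 in KO1 (-0.019 without control replicate A, -0.02 with the running median; -0.019 to 0.14 with 1 library left out) and SNHG15 in KO2 (0.021 without control replicate B; -0.13 to 0.021 with 1 library left out). The cause was not tested. Same-letter libraries of different lines did not deviate together (r from -0.074 to 0.037 over 9 pairs, beside -0.109 to 0.123 over 18 pairs with different letters). With 3 libraries per line, this does not show whether the letters stand for a shared batch. With the letter as a replicate block, 4 host genes were higher in KO2 against KO1 (GAS5 and SNHG12 were lost), 4 in KO2 against control and 2 in KO1 against control. The planned count models of edgeR and DESeq2 were not run, although whole reads had been recovered, and limma-voom on those reads was added instead. Hosted snoRNAs had 4 to 30 reads per library, which limits what could be detected.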
